A study of Mus musculus with 13 samples.

Results

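The genes described here are 36 cell-cycle and DNA replication genes, out of 19752 named genes on the array. They were chosen by name from their known roles, but with earlier results of these data known. They fall into 15 replication genes, whose products license, unwind or copy DNA or supply its nucleotides, and 21 mitotic genes, whose products drive chromosome segregation and exit from mitosis. All 36 were matched to probes through their RefSeq records, and 33 passed the filter on dim probes, which asks that some group have the probe well above background throughout. The other members, Ccne2 (cyclin E2), Aurkb (Aurora kinase B) and Cenpf (a kinetochore protein), were not well above background on any array, so they have no usable level and were not tested.

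The samples are fat from male mice of the C57BL/6J strain, measured on 1-colour Agilent arrays, of which 12 fall into 5 groups. Fv2E-PERK joins the kinase domain of PERK, a kinase of the endoplasmic reticulum stress response, to a domain that the drug AP20187 dimerizes. White adipose tissue (WAT) was taken from wild-type mice without treatment (3 arrays) and from transgenic Fv2E-PERK mice 12 h after an intraperitoneal injection of vehicle (2 arrays) or of AP20187 at 100 ng/g (3 arrays). Brown adipose tissue (BAT) came from Fv2E-PERK mice 12 h after vehicle (2 arrays) or AP20187 (2 arrays). No wild-type mouse received AP20187 or vehicle, and there is no wild-type BAT. The design text writes the transgene as mAP::Fv2E-PERK and does not spell out mAP. The labels give no ages and do not say whether arrays of a group come from separate mice, so p-values measure only the spread between these arrays. The treatment text speaks of muscles, whereas all samples are labelled WAT or BAT. A 13th array is titled BAT vehicle but has WAT in its source name, and it entered no comparison.

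Cells that divide switch these genes on in waves. Before S phase, E2F transcription factors raise the MCM helicase, its loading factor Cdc6 and the enzymes of nucleotide synthesis. Later, the mitotic genes are switched on through promoter elements called CHR and CCAAT boxes, of which MuvB complexes bind the CHR. Mature adipocytes do not divide, so in fat these transcripts are usually assigned to progenitors, endothelial cells and leukocytes. In a piece of tissue, fewer cells of a type and less RNA per cell cannot be told apart.

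Levels are log2 intensities relative to the 75th percentile of the array, and a difference of 1 is 2-fold. The share of named genes well above background was 74.9% to 78.2% on wild-type and vehicle WAT arrays, 67.0% to 70.2% on WAT AP20187 arrays and 64.0% to 67.0% on BAT arrays. The lowest level that counted as above background was -5.16 to -4.76 on the wild-type and vehicle WAT arrays. It was -4.23 to -3.84 on the WAT AP20187 arrays and -3.70 to -3.43 on the BAT arrays, and levels below it have no order. WAT AP20187 1, 2 and 3 had 8.62%, 9.12% and 2.06% of spots in areas of weak signal, and all other arrays had 0%. The epididymis markers averaged 7.85 on WAT AP20187 1 and -0.58 on WAT AP20187 2, against -5.26 on WAT AP20187 3 and -5.40 to -2.13 on the other WAT arrays. Brown adipocyte markers averaged 4.82 to 5.97 on the 4 BAT arrays and -1.06 to 0.95 on the 8 WAT arrays. They separated BAT from WAT as labelled, but do not show whether an array also holds other tissue. The slides are confounded with the groups in part. Slide 1 held the wild-type arrays and WAT vehicle 1, and slide 3 held the 4 BAT arrays of the groups. Slide 2 held WAT vehicle 2, the WAT AP20187 arrays and the array with contradictory tissue labels.

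Across the arrays the median of the mitotic genes spanned a wider range than that of the replication genes. Relative to the wild-type mean of each gene, the median replication gene lay at -0.06, 0.21 and -0.13 on the wild-type arrays, at -0.30 and -0.37 on the WAT vehicle arrays and at -0.32, -0.11 and -0.32 on the WAT AP20187 arrays. The median mitotic gene lay at -0.10, 0.27 and -0.16 on the wild-type arrays, at -0.24 and -0.55 on the WAT vehicle arrays and at -0.61, -0.66 and -1.35 on the WAT AP20187 arrays. The mitotic medians of the 3 AP20187 arrays were all below those of vehicle and wild type, though those of AP20187 1 and 2 lay close to WAT vehicle 2. The replication medians of AP20187 and vehicle arrays overlapped. In BAT the median mitotic gene lay at -2.91 on vehicle 2 and -0.58 on vehicle 3, and at -2.37 and -2.94 on the AP20187 arrays. The corresponding replication medians were -1.37 and -0.20 on vehicle and -0.83 and -1.02 on AP20187. BAT vehicle 3 therefore stood apart from the other 3 BAT arrays, which lay close together. Only 9 of the 21 mitotic genes were above background on both BAT vehicle arrays, and 7 on both BAT AP20187 arrays. The mitotic medians of BAT vehicle 2 and the BAT AP20187 arrays therefore rest largely on readings at background, which have no order. Over all named genes the median was 0.22 to 0.45 on the WAT AP20187 arrays and 0.22 to 0.31 on the BAT arrays.

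**Figure D1:**
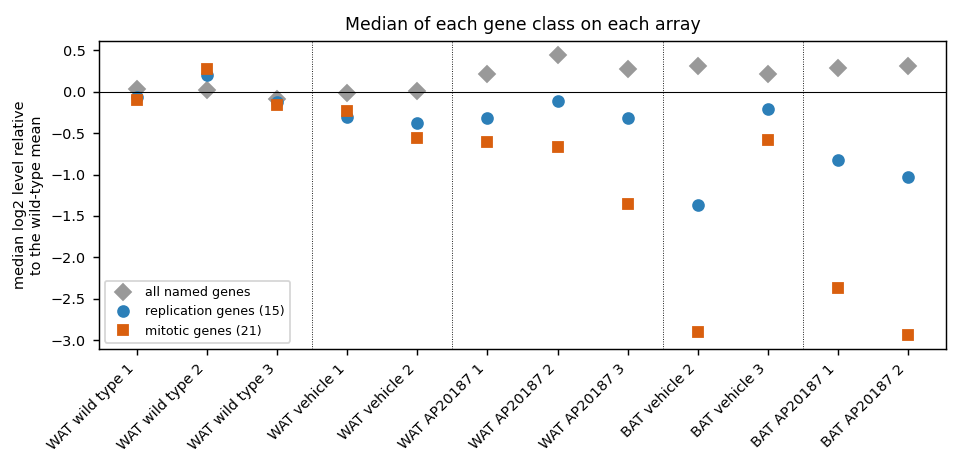
Median log2 level of all named genes (grey diamonds), the 15 replication genes (blue circles) and the 21 mitotic genes (orange squares) on each of the 12 arrays, relative to the mean of the 3 wild-type arrays. The mitotic medians range from 0.27 on wild-type array 2 to -1.35 on WAT AP20187 3 and -2.94 on BAT AP20187 2, while BAT vehicle 3 stays at -0.58. On the other BAT arrays most mitotic genes were at background.

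The number of members above background also differed between the groups. The 33 tested members were all above background on each of the 5 wild-type and vehicle WAT arrays. On the WAT AP20187 arrays 28, 31 and 29 were, on BAT vehicle 2 and 3, 21 and 31, and on the BAT AP20187 arrays 23 and 20. In BAT the loss lay in the mitotic genes: 9 and 17 of 21 were above background on the vehicle arrays and 10 and 7 on the AP20187 arrays, while 12 to 14 of the 15 replication genes were. The 11 mitotic genes above background on no BAT AP20187 array were Top2a, Ccna2, Ccnb1, Bub1, Bub1b, Plk1, Kif11, Tpx2 and Prc1 beside Aurkb and Cenpf. A member that is above background in WAT only passed the filter through WAT, so its BAT value is a bound.

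**Figure D2:**
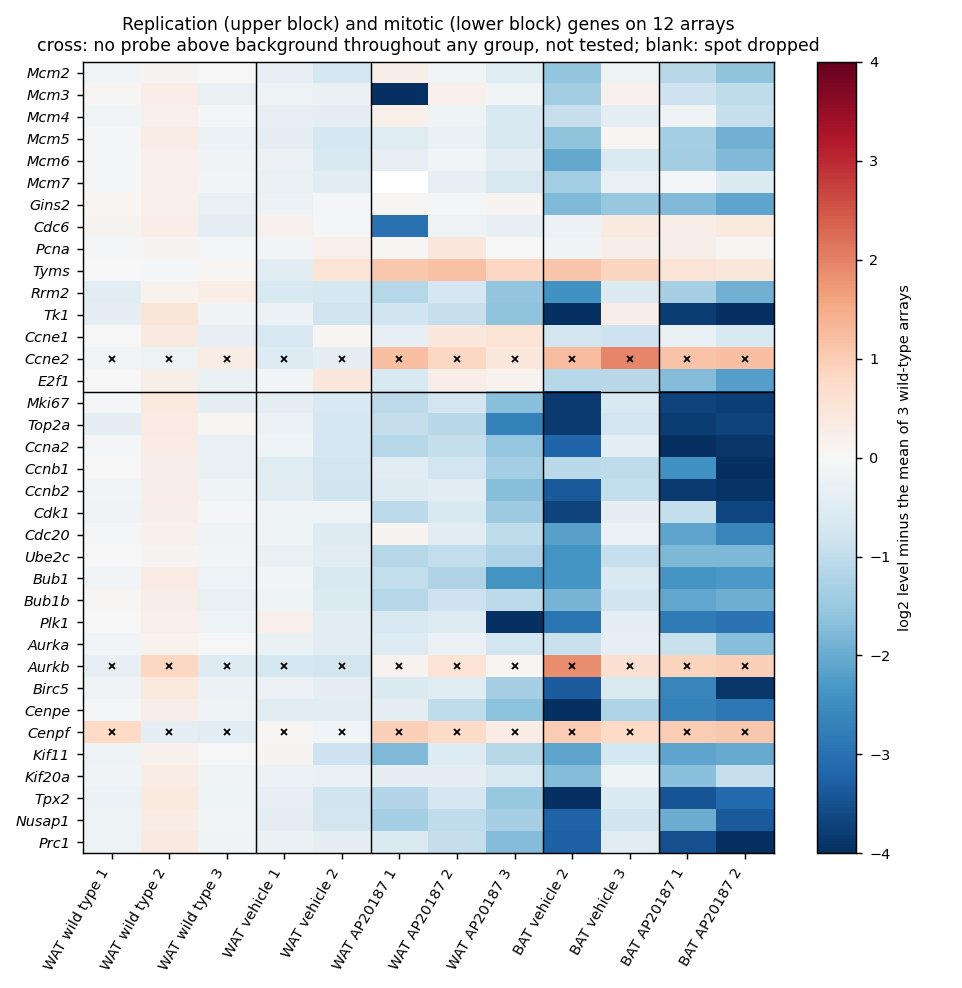
Log2 level of each of the 36 genes on 12 arrays, minus the mean of the 3 wild-type arrays, from blue (lower) to red (higher), with colours saturating at a difference of 4. Crosses mark the 3 untested genes, whose signals are all at background, and the blank cell is the dropped Mcm7 spot. The mitotic block is darkest on BAT vehicle 2 and both BAT AP20187 arrays, and the isolated dark cells of Mcm3, Cdc6 and Plk1 in WAT are single spots on 1 array.

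Promoter sequences of some members of each class are shown because the motifs named above are part of what these genes are known for; no relation between motifs and array values was tested. RefSeq promoter windows on GRCm38.p6, from 250 bases before to 50 bases after the start, existed for 29 of the 36 members. Motifs were searched on both strands as letters: TTTGAA or TTCGAA for the CHR, CCAAT for the CCAAT box, and TTTCCCGC, TTTCGCGC, TTTGCCGC or TTTGGCGC for the E2F site. The CHR letters were in 13 of 17 mitotic genes, 77.8% of their windows, in 2 of 12 replication genes and in 19.2% of all 32851 windows. The CCAAT letters were in 15 of 17 mitotic genes, 7 of 12 replication genes and 37.4% of all windows. The E2F letters were in 5 of 12 replication genes (Mcm3, Mcm5, Mcm6, Mcm7 and Cdc6), in 1 of 17 mitotic genes (Cdk1) and in 2.27% of all windows. A match describes letters and not binding, and no match says only that these letters are not in the window.

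The following stretches run 5′ to 3′ in the direction of transcription and end at the base before the annotated start, on GRCm38.p6, with matched motif letters in capitals. Overlapping matches run together.
Cdk1, chr10:69352913-69353048, minus strand: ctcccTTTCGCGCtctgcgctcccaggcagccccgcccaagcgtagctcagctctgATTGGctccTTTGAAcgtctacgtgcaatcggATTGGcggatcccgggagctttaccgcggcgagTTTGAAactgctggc
Cdc20, chr4:118437344-118437401, minus strand: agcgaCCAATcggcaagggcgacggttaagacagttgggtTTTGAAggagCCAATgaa
Ube2c, chr2:164769738-164769928, plus strand: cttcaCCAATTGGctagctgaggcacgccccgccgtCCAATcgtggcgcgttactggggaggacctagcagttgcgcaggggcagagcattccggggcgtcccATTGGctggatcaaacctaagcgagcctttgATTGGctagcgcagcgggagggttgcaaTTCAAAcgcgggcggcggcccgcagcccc
Mki67, chr7:135716380-135716572, minus strand: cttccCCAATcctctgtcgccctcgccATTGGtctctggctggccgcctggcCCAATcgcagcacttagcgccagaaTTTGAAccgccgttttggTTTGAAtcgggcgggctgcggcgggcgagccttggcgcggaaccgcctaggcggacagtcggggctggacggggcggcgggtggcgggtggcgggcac
Ccnb1, chr13:100786487-100786590, minus strand: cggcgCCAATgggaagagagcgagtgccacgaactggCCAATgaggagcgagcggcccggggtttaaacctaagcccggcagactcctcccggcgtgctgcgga
Mcm5, chr8:75109351-75109508, plus strand: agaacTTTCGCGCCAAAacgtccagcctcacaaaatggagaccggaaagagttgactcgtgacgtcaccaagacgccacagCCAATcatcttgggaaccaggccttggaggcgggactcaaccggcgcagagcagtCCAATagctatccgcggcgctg
Mcm6, chr1:128359706-128359820, minus strand: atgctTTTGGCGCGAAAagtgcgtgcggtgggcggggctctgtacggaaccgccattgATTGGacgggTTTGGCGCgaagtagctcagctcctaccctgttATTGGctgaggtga
Mcm7, chr5:138171884-138172061, minus strand: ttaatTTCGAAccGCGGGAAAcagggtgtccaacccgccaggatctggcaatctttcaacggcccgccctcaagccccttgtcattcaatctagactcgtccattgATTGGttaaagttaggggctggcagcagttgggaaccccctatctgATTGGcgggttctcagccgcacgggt
Cdc6, chr11:98908008-98908150, plus strand: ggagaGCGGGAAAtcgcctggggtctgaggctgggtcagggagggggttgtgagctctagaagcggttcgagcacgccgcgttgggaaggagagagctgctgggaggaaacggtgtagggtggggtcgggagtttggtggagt
Cdc20, Ube2c, Mki67 and Cdk1 carry CCAAT and CHR letters together, on either strand, and Ccnb1 carries CCAAT boxes without the CHR letters. Cdk1 has an E2F match as well. Mcm5, Mcm6 and Mcm7 carry E2F letters beside CCAAT boxes, Mcm7 with CHR letters too, and Cdc6 carries an E2F match alone.

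AP20187 against vehicle in WAT compares transgenic mice with and without the drug. No wild-type mouse received AP20187, so dimerized Fv2E-PERK and the drug itself cannot be told apart. No member passed the test (limma, adjusted p under 0.05), against 2.24% of all 24456 features tested. The mitotic genes lay lower after AP20187, with 19 of 21 lower and a median difference of -0.63, while the replication genes had 6 of 15 lower and a median of 0.13. Over all named genes 33.8% were lower and the median was 0.26. The replication median turned to -0.06 under quantile scaling, where all named genes had 0.10, and to -0.17 when arrays were scaled on probes detected everywhere, where all named genes had -0.04. The mitotic median stayed below 0 under both, at -0.52 and -0.93. All 3 AP20187 arrays lay below both vehicle arrays for 13 members, 12 of them mitotic, against 7.72% of named genes. They lay above for 5 members, of which Ccne2, Aurkb and Cenpf are at background, against 30.5% of named genes.

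Among the replication genes, Mcm2, a subunit of the MCM helicase, had levels of -0.72 and -1.08 on the vehicle arrays and -0.11, -0.51 and -0.87 on the AP20187 arrays. The groups overlapped (difference 0.41, SE 0.39, limma adjusted p = 0.548). Pcna, the sliding clamp of DNA polymerase, had 3.56 and 3.87 on vehicle and 3.73, 4.13 and 3.67 on AP20187, a difference of 0.13 (SE 0.21). Its levels on the 12 arrays spanned only 3.55 to 4.13, the narrowest range of any member. Tyms, thymidylate synthase, which makes the thymidine nucleotide, had -3.24 and -2.22 on vehicle and -1.69, -1.62 and -1.96 on AP20187. All AP20187 arrays were higher (difference 0.98, SE 0.27), and with limma the adjusted p was 0.0916. Within slide 2 the difference of Tyms from WAT vehicle 2 was 0.47.

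Ccne1, cyclin E1, which starts S phase with Cdk2, had 0.42 and 1.11 on vehicle and 0.75, 1.49 and 1.63 on AP20187. Its second probe differed in the other direction (-0.46), above background on 6 of 12 arrays. E2f1, the activator of this gene class, had 0.21 and 0.73 on vehicle and -0.29, 0.57 and 0.44 on AP20187. The groups overlapped for both genes. The other MCM subunits Mcm4, Mcm5 and Mcm6 differed by 0.14, 0.10 and 0.14, and Gins2, a subunit of the GINS complex of the helicase, by 0.19. Mcm7 differed by -0.11 over the 2 AP20187 arrays left after its outlier spot on WAT AP20187 1 was dropped. Mcm3 read -6.13 on WAT AP20187 1, a spot in an area of weak signal, against 1.20 to 1.74 on the other WAT arrays. Cdc6 read -6.23 on the same array, outside such an area, against -3.65 to -2.99 on the other WAT arrays. Rrm2, a subunit of ribonucleotide reductase, differed by -0.48, and Tk1, thymidine kinase, by -0.59, both with overlapping arrays.

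Among the mitotic genes, Mki67, the proliferation marker Ki-67, had 0.999 and 0.74 on vehicle and 0.31, 0.62 and -0.33 on AP20187. All AP20187 arrays were lower, but the difference of -0.67 was within its error (SE 0.76, limma adjusted p = 0.609), and the second Mki67 probe gave -0.69. Cdk1, the mitotic kinase, had -2.18 and -2.19 on vehicle and -3.04, -2.62 and -3.44 on AP20187 (difference -0.85, SE 0.96). Both other Cdk1 probes differed upwards (0.66 and 0.29), but they were above background on 2 and on 0 of 12 arrays. Top2a, topoisomerase II alpha, had -1.81 and -2.31 on vehicle and -2.55, -2.69 and -4.30 on AP20187, where the lowest value came from a spot in an area of weak signal. Ccnb1, cyclin B1, had -1.68 and -1.95 on vehicle and -1.66, -1.99 and -2.56 on AP20187, and its groups overlapped.

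The smallest p in the mitotic class belonged to Ube2c, the ubiquitin-conjugating enzyme of the anaphase-promoting complex (difference -0.79, SE 0.36, limma adjusted p = 0.232). The spindle checkpoint kinase Bub1, which was not above background on any AP20187 array, was at least 1.31-fold lower (limma adjusted p = 0.244). Its spots on WAT AP20187 1 and 2 lie in areas of weak signal. Bub1b, of the same checkpoint, differed by -0.63 (SE 0.31, adjusted p = 0.265). A bound such as that of Bub1, here and in later comparisons, divides the brighter group's mean by a mean over the dimmer arrays. That mean takes the lowest level that counted as above background, or the probe's own signal where that was higher. The cytokinesis factor Prc1 differed by -0.75, the microtubule binder Nusap1 by -0.68, Ccna2 (cyclin A2) by -0.79 and Plk1 (polo-like kinase 1) by -2.16. The Plk1 value rests on WAT AP20187 3, whose spot at -6.09 lies in an area of weak signal, and the other AP20187 arrays read -1.04 and -0.96 against -0.23 and -0.85. Kif11, a spindle motor also at background on every AP20187 array, was at least 1.08-fold lower. The remaining tested mitotic genes differed by -0.58 (Cenpe) to -0.11 (Cdc20).

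Within slide 2 the median difference of AP20187 from WAT vehicle 2 was -0.45 over the mitotic genes, with 18 of 21 lower, and 0.12 over the replication genes, while all named genes had 0.24. With spots in areas of weak signal removed the medians were -0.56 and 0.14. Without WAT AP20187 1 and 2, the arrays with epididymis markers, the mitotic median was -0.96 and the replication median -0.03. WAT AP20187 3, with epididymis markers in the range of vehicle, had the lowest level of 16 of 21 mitotic genes among the 8 WAT arrays, and of 12.3% of named genes. Lymphocyte markers averaged -1.48 and -1.41 on vehicle and -2.38, -1.34 and -1.76 on AP20187. Of these 14 markers 13 were above background on each vehicle array and 10 to 11 on the AP20187 arrays, with Cd8a at background in both groups, and the summed level was 12.5 to 14.8 on vehicle and 12.4 to 16.9 on AP20187. Macrophage markers averaged 3.30 and 3.33 on vehicle and 2.22, 3.41 and 3.10 on AP20187, with 13 to 14 of 14 above background and summed levels of 212 to 229 and 201 to 759. Epididymis markers above background numbered 4 and 5 of 13 on vehicle and 10, 12 and 1 on AP20187, with summed levels of 1.22 to 1.58 and 0.836 to 3462. Endothelial markers averaged 2.23 and 2.21 on vehicle and 0.61, 2.37 and 2.16 on AP20187, with 9 to 10 of 10 above background and summed levels of 121 to 129 and 68.4 to 151. Germ cell markers averaged -2.38 and -4.66 on vehicle and -1.06, -3.45 and -4.35 on AP20187, with 7 to 9 and 5 to 8 of 12 above background, Sycp1, Dazl and Ccna1 at background in both groups, and summed levels of 1.32 to 11.2 and 1.78 to 82.2. The part of these markers in the difference was not tested.

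**Figure D3:**
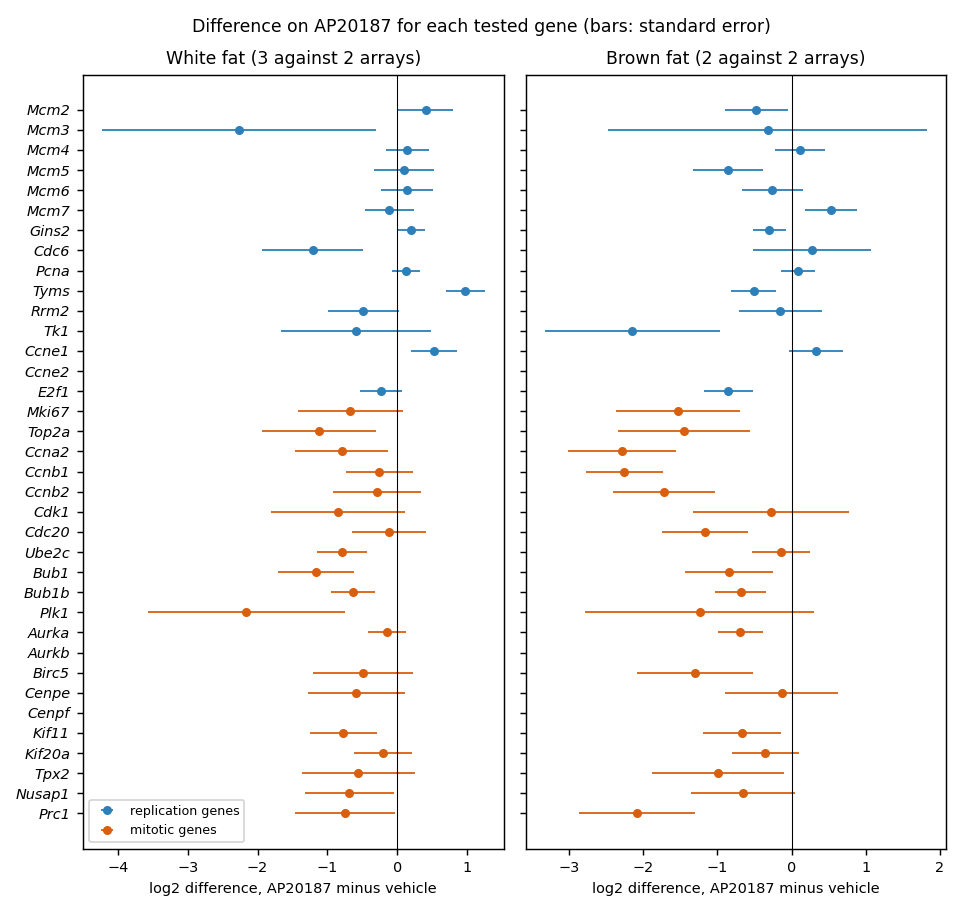
Log2 difference between AP20187 and vehicle for each tested gene in WAT (left, 3 against 2 arrays) and BAT (right, 2 against 2 arrays), with bars of 1 standard error from the limma fit. The 19 tested mitotic genes lie below 0 in both tissues, and the 14 tested replication genes lie on both sides, with Tyms at 0.98 in WAT and at -0.51 in BAT.

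In BAT no member passed the test either, against 0.00818% of features. AP20187 arrays were lower for 30 of 36 members, with median differences of -0.84 over the mitotic and -0.30 over the replication genes, against 0.05 over all named genes. Of the 21 mitotic genes 11 were above background on no BAT AP20187 array, so the mitotic median takes in readings that have no order. Both AP20187 arrays lay below both vehicle arrays for 10 members, 6 of them mitotic, against 15.3% of named genes, and above for 1 (Ccne1), against 19.3%. Of those 10, Ccne2 was at background on all 4 arrays, and Bub1b and Ccna2 on all but BAT vehicle 3, so their readings on the other arrays have no order. The direction of the class rested on BAT vehicle 3. Without it the median over the 36 members was 0.07, with 23 higher, and the mitotic and replication medians were 0.03 and 0.27. Without BAT vehicle 2 the member median was -1.19.

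For most members BAT vehicle 2 was as low as the AP20187 arrays. Mki67 had -2.47 on vehicle 2 and 0.73 on vehicle 3, against -2.37 and -2.43 on AP20187. Top2a had -5.42 and -2.37 against -5.39 and -5.30, and Cdk1 had -5.71 and -2.40 against -2.96 and -5.68. In each of these genes 1 vehicle array was high and the groups overlapped. Mcm2 read -1.95 and -0.59 on vehicle and -1.51 and -1.99 on AP20187, with the same pattern. Pcna read 3.55 and 3.92 on vehicle and 3.90 and 3.73 on AP20187, and Ccne1 0.34 and 0.23 on vehicle and 0.76 and 0.47 on AP20187. For Pcna the groups overlapped, and for Ccne1 both AP20187 arrays were higher (difference 0.33, SE 0.36). BAT vehicle 3 had the highest level among the 4 BAT arrays for 29 of 36 members, 19 of them mitotic, whereas it had the highest level of 23.2% of named genes.

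A few genes were low on both AP20187 arrays whichever vehicle array they were set against. Ccnb1 had -2.30 and -2.23 on the vehicle arrays and -3.62 and -5.42 on the AP20187 arrays. Both vehicle arrays were above background and no AP20187 array was, so Ccnb1 was at least 2.35-fold lower (limma adjusted p = 0.318). The other Ccnb1 probes differed by 0.10 and 0.08, and were above background on 4 and 5 of 12 arrays. E2f1 had -0.82 and -0.80 on vehicle and -1.44 and -1.89 on AP20187. Both AP20187 arrays were lower (difference -0.86, SE 0.33, limma adjusted p = 0.601).

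Prc1 had -2.91 and -0.11 on vehicle and -3.15 and -4.04 on AP20187, at least 3.46-fold lower (limma adjusted p = 0.590). Ccnb2, cyclin B2, had -2.55 and -0.17 on vehicle and -3.05 and -3.12 on AP20187 (difference -1.72, SE 0.69, adjusted p = 0.619). Aurka, Aurora kinase A, had -1.06 and -0.52 on vehicle and -1.08 and -1.88 on AP20187 (difference -0.69, SE 0.30, adjusted p = 0.672). In these genes the arrays of the groups did not overlap, but BAT vehicle 2 lay nearer to an AP20187 array than to BAT vehicle 3. Ccna2, above background only on BAT vehicle 3, differed by -2.29 (limma adjusted p = 0.488). The difference was -3.70 without BAT vehicle 2 and -0.87 without BAT vehicle 3, the latter between readings at background. The Ccna2 value thus rests on 1 array, and no bound is given.

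Macrophage and lymphocyte markers were higher on BAT vehicle 3 than on the other BAT arrays. In mean level the endothelial and skeletal muscle lists were also highest on it, and the brown adipocyte list was lowest. The brown adipocyte mean lay close to that of an AP20187 array. Endothelial markers averaged 2.39 on vehicle 3 and 1.938 to 2.099 on the other BAT arrays, with 10 of 10 above background on each. Macrophage markers averaged 1.89 on BAT vehicle 3 and 0.73 to 1.12 on the other BAT arrays, with 13 of 14 above background on each, and their summed level was 103 against 45.5 to 56.2. Cd163 was at background on all BAT arrays. Lymphocyte markers averaged -1.33 on vehicle 3 and -2.81 to -2.24 on the others, with 11 of 14 above background on vehicle 3 against 7 to 9, and Cd8a and Cd79a among those at background throughout. Skeletal muscle markers averaged 4.75 on vehicle 3, 0.77 on vehicle 2 and 4.13 and 3.14 on AP20187, and brown adipocyte markers 4.82 on vehicle 3, 5.59 on vehicle 2 and 4.91 and 5.97 on AP20187. Their summed levels were 1299 (muscle) and 4663 (brown adipocyte) on vehicle 3, against 70.0 to 815 and 5903 to 7488 on the others, with 10 to 11 of 12 muscle markers above background, Myog at background throughout, and all 9 brown markers above it. The part of these markers in the difference was not tested.

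**Figure D4:**
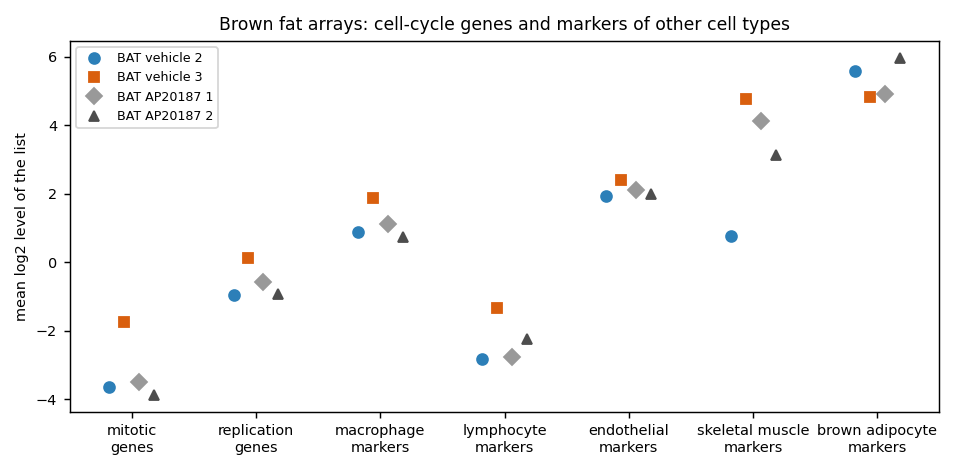
Mean log2 level of the mitotic and replication genes and of 5 lists of cell type markers on each of the 4 BAT arrays. BAT vehicle 3 (orange squares) is highest for both gene classes and for the macrophage, lymphocyte, endothelial and skeletal muscle lists, and lowest for the brown adipocyte list. In the brown adipocyte list its mean of 4.82 lies close to the 4.91 of an AP20187 array.

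Vehicle-treated transgenic against wild-type WAT measures the transgene and the injection together. No member passed the test, against 0.0245% of features. The members were lower in 32 of 36 cases, with medians of -0.34 for the replication and -0.37 for the mitotic genes, against 0.01 for all named genes. Both vehicle arrays lay below all 3 wild-type arrays for 20 members and above for none, against 19.6% and 16.8% of named genes, though Ccne2 and Aurkb among the 20 are at background. The wild-type arrays read -0.50, -0.26 and -0.39 for Mcm2, and -1.20, -0.96 and -1.46 for Ccnb1, with both vehicle arrays below them. They read -2.15, -1.77 and -2.10 for Cdk1, 3.62, 3.79 and 3.62 for Pcna, 1.04, 1.44 and 0.73 for Ccne1 and 0.34, 0.54 and 0.05 for E2f1. Of these 4 only Cdk1 did not overlap with vehicle. The differences were small beside their errors: Mcm2 differed by -0.52 (SE 0.39), Ccnb1 by -0.61 (SE 0.47), Mki67 by -0.48 (SE 0.76) and E2f1 by 0.16 (SE 0.30). Wild-type array 2 had the highest level of 27 of 36 members among the 8 WAT arrays, and of 6.76% of named genes. On slide 1, WAT vehicle 1 differed from the 3 wild-type arrays by a median of -0.30 over the replication genes and -0.24 over the mitotic genes.

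AP20187-treated transgenic against wild-type WAT adds the drug to those differences, and these groups share no slide, so only the vehicle arrays link them. Of the members 1, Tyms, rose and 0 fell, against 7.2% and 1.66% of features, 8.87% in all. The mitotic genes had a median difference of -1.03 with 19 of 21 lower, and the replication genes -0.20 with 10 of 15 lower, against 0.30 over all named genes. The 3 AP20187 arrays lay below the 3 wild-type arrays for 21 members, 18 of them mitotic, against 6.95% of named genes, and above for Tyms and for Ccne2, which is at background, against 32.9%.

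Tyms read -2.80, -2.82 and -2.70 on the wild-type arrays and -1.69, -1.62 and -1.96 on the AP20187 arrays, so all AP20187 arrays were higher. It rose by 1.02 on the log2 scale, 2.03-fold (SE 0.25, limma adjusted p = 0.0402). With slide as a fixed block the difference was 0.00, since WAT vehicle 2 on slide 2 read -2.22 and WAT vehicle 1 on slide 1 read -3.24. That estimate rests on those 2 vehicle arrays, the only group on both slides. The call was lost without any 1 of the wild-type arrays, of WAT AP20187 2 and 3 or of the BAT arrays, with differences of 0.95 to 1.12. Bub1b read -1.90, -1.72 and -2.24 on wild type and -3.09, -2.77 and -3.01 on AP20187. Ube2c read 0.40, 0.54 and 0.33 on wild type and -0.73, -0.57 and -0.83 on AP20187. Neither overlapped, with differences of -1.003 (SE 0.28, limma adjusted p = 0.0556) and -1.13 (SE 0.32, adjusted p = 0.0584).

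Bub1, at -3.41, -2.98 and -3.48 on wild type and below background on the AP20187 arrays, was at least 1.69-fold lower (limma adjusted p = 0.0784), and its spots on WAT AP20187 1 and 2 lie in areas of weak signal. Kif11, the spindle motor Eg5, at -3.77, -3.39 and -3.57 on wild type, was at least 1.39-fold lower by the same measure (adjusted p = 0.125). Rrm2 read 0.56, 1.13 and 1.26 on wild type and -0.17, 0.30 and -0.59 on AP20187, a difference of -1.14 (SE 0.46, adjusted p = 0.142). The difference was -1.15 for Mki67, -1.59 for Top2a, -0.86 for Ccnb1, -1.03 for Cdk1, -0.11 for Mcm2, 0.16 for Pcna, 0.22 for Ccne1 and -0.07 for E2f1, none of which passed. Mki67 had read 1.30, 1.75 and 0.99 on wild type, and Top2a -1.95, -1.26 and -1.55. In both the 3 AP20187 arrays lay below the 3 wild-type arrays.

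**Figure D5:**
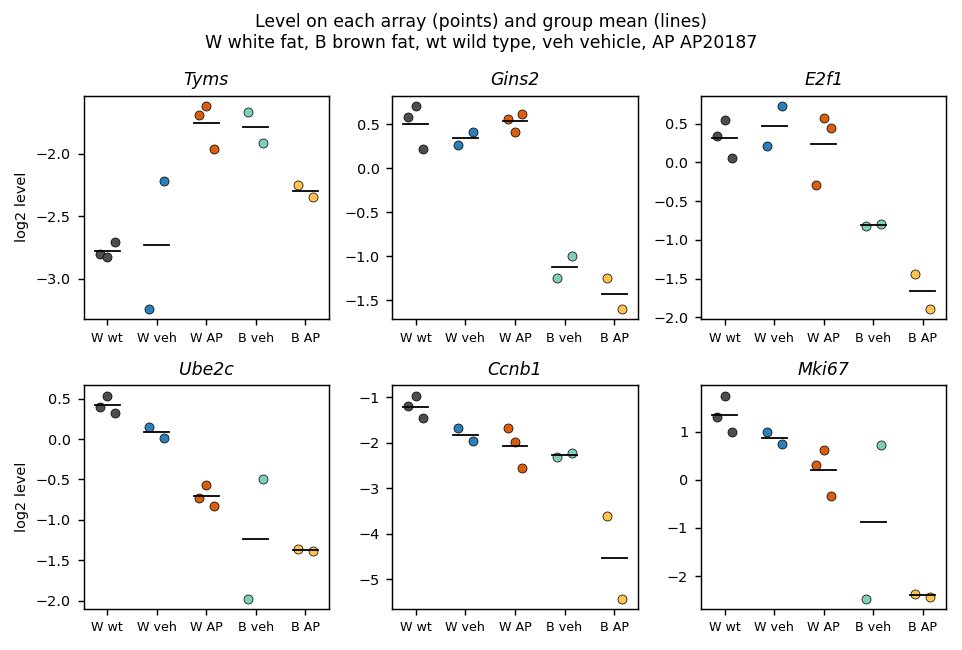
Log2 level on each array (points) and group mean (lines) of Tyms, Gins2, E2f1, Ube2c, Ccnb1 and Mki67 in the 5 groups; scales differ between panels. Tyms is at -1.69, -1.62 and -1.96 in WAT after AP20187 against -2.82 to -2.70 in wild-type WAT, and Gins2 and E2f1 are lower on all 4 BAT arrays than on all 8 WAT arrays.

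Vehicle-treated BAT against vehicle-treated WAT compares the tissues, which were on different slides, so tissue and slide cannot be told apart. Of the members 3 fell and 0 rose, against 9.16% and 14.3% of features, 23.4% in all. The members were lower in 30 of 36 cases, with medians of -1.38 over the mitotic and -0.37 over the replication genes, against 0.21 over all named genes. Only 9 of the 21 mitotic genes were above background on both BAT arrays, so the mitotic median is in part a bound. Both BAT arrays lay below both WAT arrays for 15 members, against 26.6% of named genes, and above for 4, against 42.6%; of those 4, Ccne2, Aurkb and Cenpf are at background.

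Gins2 read -1.25 and -1.0 in BAT against 0.27 and 0.41 in WAT, and it fell by 1.46 on the log2 scale (SE 0.22, limma adjusted p = 0.00224). E2f1 read -0.82 and -0.80 in BAT against 0.21 and 0.73 in WAT, and it fell by 1.28 (SE 0.33, adjusted p = 0.0236). Ube2c read -1.97 and -0.49 in BAT against 0.15 and 0.01 in WAT, and it fell by 1.31 (SE 0.39, adjusted p = 0.0401). For Gins2 and E2f1 both BAT arrays were alike, whereas for Ube2c they were 1 low and 1 higher. The member median was -0.09 without BAT vehicle 2 and -1.60 without BAT vehicle 3. Each of these fits leaves 1 BAT vehicle array, so counts of members called are not given. E2f1 lost its call without BAT vehicle 2, BAT vehicle 3 or WAT vehicle 2, with differences of -1.27, -1.29 and -1.02.

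Tyms ran the other way, at -1.66 and -1.91 in BAT against -3.24 and -2.22 in WAT (difference 0.94, SE 0.30, limma adjusted p = 0.0517). Cenpe, a kinetochore motor, read -4.15 and -1.31 in BAT against -0.53 and -0.51 in WAT (difference -2.22, SE 0.76, adjusted p = 0.0664), with BAT vehicle 2 below background. Bub1b read -3.82 and -2.74 against -2.14 and -2.51 (difference -0.96, SE 0.34, adjusted p = 0.0730), also with BAT vehicle 2 below background. Ccnb2 read -2.55 and -0.17 against 0.38 and 0.01 (difference -1.56, SE 0.69, adjusted p = 0.137). None of these overlapped and none passed.

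The responses of BAT and WAT to AP20187 differed for no member by the interaction test (limma), against 0% of features. The smallest p belonged to Tyms, whose response in BAT minus that in WAT was -1.49 (SE 0.41, limma adjusted p = 0.148).

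Other genes of the same pathways were taken as lists. In WAT after AP20187 none of the 24 tested of 26 other replication genes passed, and 18 of 26 were higher, with a median of 0.21. That is 30.8% lower, near the 33.8% lower and the median of 0.26 over all named genes. Lig1, the ligase that joins Okazaki fragments, differed by 1.13 (limma adjusted p = 0.0649), and Gins3, of the GINS complex, by 0.80 (adjusted p = 0.0814). None of the 30 tested of 33 other mitotic genes passed, 28 of 33 were lower and the median was -0.42. Ndc80, a kinetochore protein at background on the AP20187 arrays, was at least 2.85-fold lower (adjusted p = 0.0794) and Nek2, a centrosome kinase, by -0.95 (adjusted p = 0.162). The Ndc80 spot on WAT AP20187 1 lies in an area of weak signal, and 7 of 26 other replication genes were above vehicle on all arrays and 14 of 33 other mitotic genes below, against 30.5% and 7.72% of named genes.

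None of the G1 cyclins and kinases or of the inhibitors passed in that comparison. E2f3 and Cdk4 had the smallest p of the 10 G1 genes, with differences of 0.49 and 0.45. Ccnd1, cyclin D1, differed by 0.94 (SE 0.93) over the 2 AP20187 arrays left after an outlier spot was dropped. Of the 22 inhibitors and arrest genes, E2f7, a repressor of E2F targets, differed by 0.97 (limma adjusted p = 0.0957), with a spot in an area of weak signal on WAT AP20187 1, and the inhibitor Cdkn1c by -0.78 (adjusted p = 0.139). Cdkn1a, the inhibitor p21, read 3.02 and 3.33 on vehicle and 1.97, 3.13 and 3.38 on AP20187, with a spot in an area of weak signal on WAT AP20187 2.

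In BAT after AP20187 no gene of these lists passed either. E2f2, an activating E2F factor, read 2.74 and 2.71 on vehicle and -0.26 and -0.15 on AP20187, a difference of -2.93 (SE 0.43, limma adjusted p = 0.249). Both vehicle arrays, vehicle 3 included, were alike and both AP20187 arrays were lower. E2f8, a repressor E2F above background only on BAT vehicle 3, differed by -1.86 (adjusted p = 0.363), a value that rests on that array. Btg1, an antiproliferative gene, differed by 0.80 (adjusted p = 0.367). Cdkn1a read 3.83 and 2.73 on vehicle and 4.77 and 4.92 on AP20187 (difference 1.57, SE 0.61, adjusted p = 0.602), higher on both. Ccnd1 read 0.54 and 3.52 on vehicle and 0.52 and 0.78 on AP20187, high on vehicle 3 alone. The smallest p of the other replication genes belonged to Mcm10 (-0.94, adjusted p = 0.326) and Rrm1 (-0.55), and of the other mitotic genes to Incenp (-0.72) and Mybl2 (-0.73). After E2f2 the next in the G1 list was Myc (1.20, adjusted p = 0.802).

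Vehicle against wild-type WAT called no gene of these lists. The 2 with the smallest p were Chaf1a (-0.62) and Prim1 (-0.52) of the replication list, Pttg1 (0.40) and Mad2l1 (-0.39) of the mitotic list, Cdk2 (-0.77) and E2f2 (0.72) of the G1 list, and E2f7 (-0.86) and Cdkn2a (-1.45) of the inhibitors. Cdkn1a differed by 0.69 (SE 0.56) and Ccnd1 by -0.72 (SE 0.85).

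AP20187 against wild-type WAT called 1 gene in each of the lists, against 7.2% of all features up and 1.66% down, 8.87% in all. The genes tested were 24 other replication, 30 other mitotic and 9 G1 genes and 22 inhibitors. Gins3 read 3.77, 3.80 and 3.87 on wild type and 5.14, 4.69 and 4.45 on AP20187, and it rose by 0.95 (SE 0.19, limma adjusted p = 0.0289). Nek2 fell by 1.43 (adjusted p = 0.0328) and was above background on 6 of 12 arrays. Cdk2, the kinase of the G1/S transition, fell by 0.73 (adjusted p = 0.0483), though 1 of its AP20187 spots lies in an area of weak signal. Cdkn2a, the locus of p16 and p19Arf, read -0.74, -0.89 and -1.27 on wild type and -4.54, -3.57 and -2.17 on AP20187, and it fell by 2.46 (adjusted p = 0.0342), with the lowest value from a spot in an area of weak signal. WAT vehicle 1 and 2 read -1.79 and -3.05, also below wild type. Cdkn1a (0.34) and Ccnd1 (0.22) did not pass.

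Between the tissues under vehicle, 5 of 24 tested other replication genes rose and 0 fell, against 14.3% and 9.16% of all features. Gmnn, which blocks relicensing, rose by 3.12 (limma adjusted p = 0.00110), Rfc4, of the clamp loader, by 1.22 (adjusted p = 0.00135) and Lig1 by 1.59, followed by Rrm1 and Cdc45. Of the 30 tested other mitotic genes 2 rose and 5 fell: Pttg1, securin, rose by 1.79 (adjusted p = 0.000661) with Cenpa, while the contractile ring gene Anln fell by 2.17 (adjusted p = 0.00534), with Nek2, Espl1, Smc4 and Ect2. Ccnd2, cyclin D2, fell by 3.38 (adjusted p = 0.00147), from 5.11 and 5.03 in WAT to 1.37 and 2.02 in BAT, and E2f2 rose by 1.51. Of the inhibitors Lin9 and Gadd45b rose, and Rbl1, Btg1 and Cdkn2c fell. Ccnd1 (-0.55, SE 0.93) and Cdkn1a (0.10, SE 0.61) did not pass.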

How the data were processed

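Per the file headers, the authors scanned 1-colour arrays of design 028005 with Agilent Feature Extraction 10.7.1.1, which the submitters' processing notes name too, and the deposited processed signal is an intensity, background-subtracted and detrended within each array and not scaled between arrays. The authors' deposited value table, also intensity, equalled it within 0.1% for 98.7% to 98.9% of the values it lists. From the intensity, outlier spots were dropped, spots of a probe averaged, log2 taken and the 75th percentile of each array subtracted. Of 55681 probes 26056 had 1 gene through RefSeq records on GRCm38.p6 and 29625 had none. The probe with the highest mean among those passing the filter stood for a gene.

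limma 3.58.1 in R 4.3.3 was fitted to 12 arrays and 24456 features, 15083 of them named, with Benjamini-Hochberg adjustment at 0.05; the fit was tested on simulated data. Fitting all groups together shares 1 spread. The members and lists were chosen with earlier results of these data known. Per-array values are given for members called, for non-overlapping members with unadjusted p under 0.05 and a bright group above background (at most 8 a comparison), and always for Mki67, Top2a, Ccnb1, Cdk1, Mcm2, Pcna, Ccne1 and E2f1; other members' single-array values, and those of the list genes, were chosen after their values were seen. Of the other lists the called genes (at most 6), or else the 2 with the smallest p, and Ccnd1 and Cdkn1a are named. Alternatives were other scalings and background corrections, other filters, blocks, arrays left out and spots in weak areas removed; the last was chosen after seeing the data. No array reading has a count-based interval; the number of arrays limits the precision.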

Additional observations from a re-analysis of the deposited data

Results flagged for a closer look

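Tyms and Gins2 were on opposite sides in the tissues after AP20187: every WAT AP20187 array was above both WAT vehicle arrays and every BAT AP20187 array below both BAT vehicle arrays. The response in BAT minus that in WAT was -1.49 for Tyms (limma adjusted p = 0.148) and -0.50 for Gins2 (adjusted p = 0.453), and neither passed. The 13th array, with contradictory tissue labels, had a mean mitotic level of -0.95, above -0.98, the highest of the 7 wild-type and vehicle arrays. On it 33 members were above background, and 17 of 36 lay above every wild-type and vehicle array, against 7.82% of named genes. Its brown adipocyte markers averaged -0.11, within the range of the WAT arrays. No group had the 4 arrays that a search for single outlying arrays needs.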

How the results depend on the processing

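The median differences over all members kept their sign in each of 28 alternatives for every WAT comparison. They spanned -0.75 to -0.20 for AP20187 against vehicle, -0.44 to -0.17 for vehicle against wild type and -1.25 to -0.37 for AP20187 against wild type. With single arrays left out they spanned -0.55 to -0.24, -0.44 to -0.26 and -0.98 to -0.54. The replication median by itself changed sign for AP20187 against vehicle under some scalings, as given above. In BAT, AP20187 against vehicle spanned -1.19 to 0.0699 with single arrays left out, the reversal coming without BAT vehicle 3; BAT against WAT under vehicle spanned -1.60 to -0.0864, and the BAT minus WAT response -0.95 to 0.41, again reversed without BAT vehicle 3. Counts of members called with single arrays left out ran from 0 to 1 for AP20187 against vehicle in both tissues (Tyms without WAT vehicle 2; Ccna2 without BAT vehicle 2), 0 to 4 for AP20187 against wild type and 1 to 19 for BAT against WAT, and stayed at 0 for vehicle against wild type and for the interaction.

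For AP20187 against vehicle in WAT, 2 were called with no filter on dim probes (Tyms and Ccne2, the latter at background) and 1 without WAT AP20187 1 and 2 together (Plk1, a spot in an area of weak signal). The 1 call for AP20187 against wild type became 0 under quantile scaling, normexp with quantile scaling, only the compared arrays, slide as a fixed block, and the contradictory array placed in BAT vehicle. It became 2 with scaling on probes detected everywhere (Bub1b and Ube2c in place of Tyms), a stricter filter, the mean of a gene's probes or the contradictory array in WAT vehicle, and 3 with the authors' value table, no filter, or areas of weak signal removed. It became 20 with slide as a random block, whose estimated correlation was negative (-0.25). Shares over all features are not given for these settings, so the counts here and below do not set the members apart from other genes. Over the alternatives the adjusted p of Tyms ranged from 0.000164 to 0.9997. The 3 calls between the tissues became 6 with no filter, among them Ccne2 and Aurkb, which are at background. They also became 6 with slide as a random block or with the contradictory array in WAT vehicle, and 0 with it in BAT vehicle. Gins2 passed in 26 of 27 alternatives, E2f1 in 22 and Ube2c in 15. Slide as a fixed block could not be fitted for BAT against WAT. The cause of each change was not tested. With the replicate number as a replicate block, 0 members were called for AP20187 against wild type and 1 between the tissues; deviations of same-numbered arrays correlated at -0.23 to 0.11, so the numbers were not taken as pairs. Dim signal limits the mitotic genes in BAT, where values below the lowest level above background have no order.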
